A study of Mus musculus with 17 samples.

Results

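Leptotene/zygotene (LZ) spermatocytes of *Nat10*-SKO mice were compared with those of WT mice over all measured genes, to find the pathways and gene families that differed. The members were 5 of the 17 libraries of the series, 2 of WT (replicates 2 and 3) and 3 of SKO (replicates 1, 2 and 3), and 13724 of the 23282 genes of the table were tested in them. All mice were labelled C57BL/6, the WT libraries as Wildtype and the SKO libraries as Stra8-cre_Nat10_KO. In the SKO, a Cre driven from the *Stra8* locus, which acts in germ cells from differentiating spermatogonia onwards, excised exons 4 and 5 of the floxed *Nat10* allele. The authors write the genotype as *Nat10* fl/-;Stra8-Cre, in which the other allele is already deleted. Cells were sorted by the DNA dye Hoechst and propidium iodide staining, which reads DNA content and chromatin, and poly(A) RNA was amplified by Smart-seq2. The sources used here do not give the age of the mice or say that each library came from a separate mouse, so p-values measure the spread between these libraries only.

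NAT10 is the acetyltransferase that writes N4-acetylcytidine (ac4C) on 18S rRNA, on some tRNAs and on mRNA. Leptotene and zygotene are the stages at which meiotic chromosomes condense, break and pair. In the next stage, pachytene, germ cells switch on a large programme of genes for the sperm tail, the acrosome and sperm metabolism, driven by regulators such as A-MYB and RFX2, and much of that RNA is stored until spermatids use it. The X and Y chromosomes are silenced in pachytene, a process named meiotic sex chromosome inactivation, and many X-linked genes of general use have an autosomal copy that takes over at that time.

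The WT libraries held 13820953 and 13666762 reads, and the SKO libraries 5812380, 7609420 and 6927757. The deposited values are reads calibrated to a spike-in, and after rescaling to a common level 1 read was worth 2.92 and 3.95 in the WT libraries and 11.4, 7.29 and 8.73 in the SKO libraries. Reads are therefore given below per library, always with WT replicates 2 and 3 before SKO replicates 1, 2 and 3, while log2 fold changes (SKO minus WT, ± SE) are on the scale log2(rescaled value + 10). Equal reads in both genotypes correspond to a higher level in the SKO. A gene was called where its adjusted p was under 0.05 and its level differed by more than 1 on the log2 scale (limma with a mean-variance trend, Benjamini-Hochberg adjustment), to which all p-values below refer.

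*Nat10* had 388 and 391 reads in WT and 45, 52 and 61 in SKO. All SKO libraries lay below both WT libraries, with a log2 fold change of -1.47 ± 0.29 (adjusted p = 0.0047). Without WT replicate 3 the adjusted p was 0.0535. The reads are those of the whole gene, not of the excised exons alone. The early meiotic genes *Sycp3* and *Dmc1* were present in both genotypes. *Sycp3*, an axial element of the synaptonemal complex, had 26465 and 30740 reads in WT and 8746, 19476 and 17380 in SKO with a difference of 0.42 on the log2 scale, and *Dmc1*, the meiotic recombinase, had a log2 fold change of 0.21. Neither was called.

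Over all genes tested, 3534 were lower in SKO, or 25.8%, and 1838 were higher, or 13.4%. The median log2 fold change was -0.13. On the calibrated values without rescaling the median was -0.25, a shift of -0.12 in the median. In bulk RNA, fewer cells of a type and less RNA per cell cannot be told apart.

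A feature of the SKO libraries bears on the genes that were higher. Among the 1162 higher genes that averaged 100 reads or more in SKO, 556, or 47.8%, had level reads. This means that SKO replicates 2 and 3 each held less than 1.2 times the reads of replicate 1. Their totals were 1.31 and 1.19 times that of replicate 1, so only the condition on replicate 2 departs from the library totals. At the same minimum of reads 5.75% of lower genes and 5.53% of genes not called had level reads. Of the 431 higher genes at that minimum with a log2 fold change above 2.5, 379, or 87.9%, had level reads. *Nip7*, a factor of 60S ribosome assembly, had 24590 and 23404 reads in WT and 103183, 100853 and 103811 in SKO; its call was lost when either WT library was left out (adjusted p = 0.0924 and 0.0934). *Dclre1c*, the Artemis nuclease, had 13547 and 12603 reads in WT and 69927, 69240 and 70538 in SKO. Among tested genes at the same minimum without level reads, the median ratio of replicate 2 to replicate 1 was 1.58. Level reads are defined by low ratios, so part of this contrast is fixed by the definition.

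Transcripts of the most abundant of these genes shared a run of 20 bases, shown because it marks them. It was chosen, after the values were seen, on 192 genes that averaged 2000 reads or more in SKO, 108 of which held it, 71 in sense and 42 in antisense orientation.
Shared run: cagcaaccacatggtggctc
These bases belong to B2, a short interspersed repeat of the mouse that RNA polymerase III transcribes and that lies in the untranslated parts and introns of many genes. Genes that held it were 5.43% of those tested, 2.90% of the lower, 11.9% of the higher and 5.08% of those not called. Among higher genes that were not used to choose it, the share was 6.65%, and 11.8% for a log2 fold change above 2.5. Reads in genes that held it made up 8.52% of each WT library and 33.2%, 26.4% and 29.2% of the SKO libraries, in that order. Why these reads are level was not tested. Higher genes of level reads are drawn apart in the plot of lists, and their number is given below wherever a list held 2 or more; without all genes of level reads, 11.1% of 12863 genes were higher.

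Most lists of the late germ cell programme held more lower genes than the 25.8% of all genes. Among 15 transcription regulators of pachytene spermatocytes and spermatids, 10 were lower and 1 was higher (2 without SKO replicate 1 or WT replicate 3), with a median log2 fold change of -2.22. *Gtf2a1l*, the germ cell form of the TFIIA large subunit, had 2291 and 4399 reads in WT and 9, 4 and 9 in SKO. *Rfx2*, a winged-helix activator of ciliary genes and of the post-meiotic programme, had 1505 and 2521 reads in WT and 24, 25 and 26 in SKO. Its relative *Rfx4* had 382 and 748 reads in WT and 1, 4 and 3 in SKO. The genotypes were far apart for all 3, by -7.20 ± 0.57, -4.82 ± 0.38 and -5.87 ± 0.55 on the log2 scale (adjusted p = 7.4e-05, 7.5e-05 and 0.00014). *Taf7l*, a TFIID subunit, was the member with the most reads that was not called, with 5973 and 6894 in WT and 3599, 5531 and 4765 in SKO.

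A list of late spermatocyte transcripts, drawn up from general knowledge, went mostly in the same direction. Of its 23 genes, 19 were lower and 2 higher, with a median of -4.61. The stage at which each of them is expressed was not tested. *Crisp2*, a cysteine-rich protein of the acrosome and tail, had 7210 and 13715 reads in WT and 0, 4 and 4 in SKO. *Tcp11*, a factor of sperm motility, had 1695 and 4773 reads in WT and 0, 3 and 1 in SKO, and was at least 144-fold lower against the lowest WT library. *Piwil2*, a piRNA-binding protein, was not called, with 4340 and 2856 reads in WT and 818, 1341 and 1068 in SKO (log2 fold change -0.33).

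All 28 spermatid transcripts that were tested were lower, and no SKO library held more than 3 reads of 16 of them. *Prm1*, which packs sperm DNA, had 4121 and 2433 reads in WT and 1, 2 and 2 in SKO. *Tnp2*, a transition protein, had 4178 and 2316 reads in WT and 3, 0 and 2 in SKO. They were at least 280-fold and at least 267-fold lower. Such RNA is best known from cells later than zygotene, and its summed level in the WT libraries was 2363 and 2230 RPM (reads scaled to a common library total), against 67.1, 71.0 and 69.3 in SKO. The late spermatocyte list summed to 7395 and 12792 RPM in WT and to 496, 554 and 538 in SKO. WT replicate 3 was the higher for the spermatocyte list and replicate 2 for *Prm1* and *Tnp2*. The authors checked the purity of the sort by immunofluorescence, whose cell counts are not used here, and the part of later cells in the decreases was not tested.

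**Figure D1:**
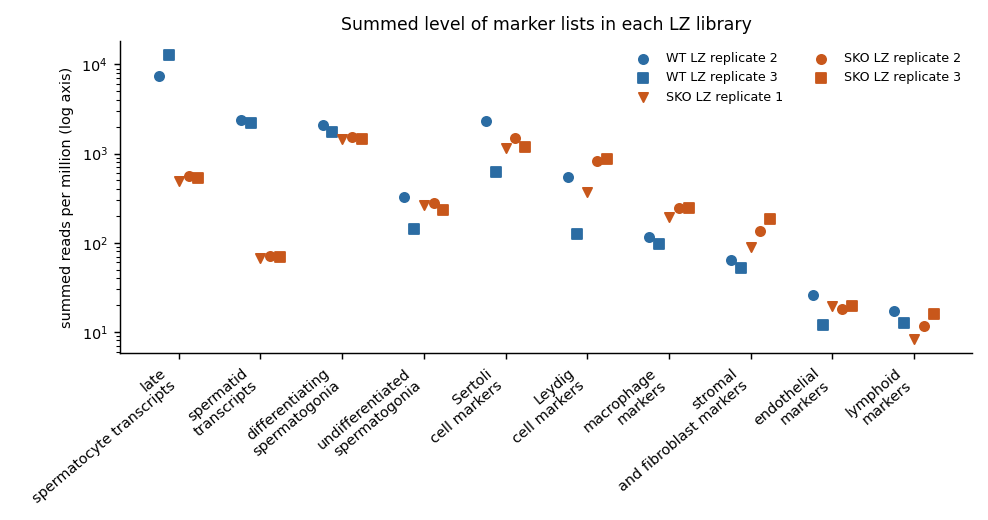
Summed level of each marker list in each LZ library in RPM on a logarithmic axis, blue for WT and orange for SKO. The late spermatocyte and spermatid lists are separated by genotype, at 7395 to 12792 and 2230 to 2363 in WT and 496 to 554 and 67.1 to 71.0 in SKO, while the Sertoli and Leydig lists overlap.

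The sperm tail was affected part by part. The axoneme is a ring of microtubules moved by dynein arms and regulated by radial spokes and a central pair. All 15 axonemal dynein genes tested were lower (median -4.95), as were all 17 of the radial spoke and central pair (median -5.68). *Dnahc8*, an outer arm heavy chain, had 4036 and 8411 reads in WT and 14, 20 and 25 in SKO. *Spag17*, of the central pair, had 2214 and 4109 reads in WT and 3, 3 and 0 in SKO, and was at least 189-fold lower. *Spag6*, of the same structure, had 2460 and 5904 reads in WT and 0, 7 and 2 in SKO. WT and SKO did not come near each other for any of the 3.

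Factors that assemble and dock dynein arms in the cytoplasm were lower in 15 of 17 cases (median -3.64). *Zmynd10*, a dynein assembly factor, had 1559 and 3497 reads in WT and 0, 3 and 0 in SKO, at least 133-fold lower. *Ruvbl1*, an AAA+ ATPase that dynein assembly shares with chromatin remodelling and other processes, was the member with the most reads that was not called (2379 and 1723 in WT, 374, 602 and 458 in SKO, log2 fold change -0.70). Tektins, outer dense fibre and fibrous sheath genes were lower in 19 of 20 cases (median -5.54). *Tekt1*, which lines the doublet microtubules, had 1730 and 3215 reads in WT and 5, 5 and 3 in SKO. The exception, *Odf2l*, is a centriolar relative of an outer dense fibre gene and had 732 and 844 reads in WT and 210, 268 and 249 in SKO (log2 fold change -0.30).

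Intraflagellar transport, which carries tubulin and other cargo along growing cilia and tails, was lower in 24 of 32 genes, and its 3 higher genes all had level reads. *Ttc30a2*, of the IFT-B particle, had 352 and 855 reads in WT and 1, 0 and 0 in SKO, with a log2 fold change of -7.18 ± 0.64 (adjusted p = 0.00011). *Ift140*, of the retrograde IFT-A particle, had 1796 and 3160 reads in WT and 44, 67 and 77 in SKO (log2 fold change -3.86 ± 0.37, adjusted p = 0.00014). *Hspb11*, also an IFT-B subunit, was not called, with 1776 and 2286 reads in WT and 529, 1010 and 924 in SKO. Members of the family thus ranged from near absence to no called difference. Of 13 genes of the BBSome, a cargo adaptor of that transport, 6 were lower and 3 higher, 2 of these with level reads.

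Tubulin glutamylases and glycylases, which add side chains to axonemal tubulin, were lower in 9 of 12 cases. *Ttll13* had 497 and 996 reads in WT and 7, 9 and 7 in SKO (log2 fold change -4.93 ± 0.48, adjusted p = 0.00016). *Ttll4*, with 436 and 318 reads in WT and 78, 136 and 92 in SKO, was not called. Kinesins as a whole did not share the direction, with 8 lower and 7 higher of 38, 4 of the higher with level reads, and a median of 0.18. The lower ones included *Kif9*, a motor of the central pair, at 1391 and 2979 reads in WT and 23, 19 and 26 in SKO.

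All 29 genes of the acrosome and of sperm-egg binding were lower (median -5.78), 18 of them with 3 reads or fewer in each SKO library. *Acr*, the acrosomal protease acrosin, had 1027 and 2111 reads in WT and 0, 0 and 2 in SKO, at least 87.5-fold lower. *Prss39*, a testis serine protease, had 448 and 1506 reads in WT and none in SKO, at least 38.2-fold lower. ADAM metalloproteinases, several of which sit on the sperm surface, were lower in 16 of 26 cases and higher in 2. *Adam5* and *Adam3* were at least 423-fold and at least 228-fold lower. *Adam10*, the widely used sheddase, was not called, with 1701 and 1401 reads in WT and 580, 897 and 820 in SKO (log2 fold change 0.37). The ADAM count rested on both WT libraries, since 10 were lower when either was left out, and 1 was higher when any library but WT replicate 2 was left out.

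Ion channels and transporters of the sperm tail were lower in 13 of 14 cases. *Catsperb*, an auxiliary subunit of the calcium channel CatSper, had 446 and 892 reads in WT and 0, 0 and 1 in SKO, at least 38.0-fold lower. *Slc9a10*, the sperm sodium-proton exchanger, had 560 and 1405 reads in WT and 0, 1 and 0 in SKO, at least 47.7-fold lower. All 5 testis-specific serine kinases tested were lower, and *Tssk1* had 596 and 384 reads in WT and 1, 4 and 1 in SKO. The spermatogenesis-associated Spata genes were lower in 13 of 17 cases and the coiled-coil Ccdc genes in 71 of 130, while 8 Ccdc genes were higher, 2 of them with level reads. Tex genes, named for expression in testis, were lower in 6 of 17 cases and higher in 1 (median -0.17), or 3 lower and 2 higher without WT replicate 3. The BTB-kelch Klhl genes had 3 lower and 4 higher of 24 (median -0.03), and 6 lower without rescaling.

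Genes known only by cDNA clone names formed a large block. These RIKEN names come from clones of a cDNA collection of the mouse, and their first digits stand for the source library, here libraries of testis. Of 286 tested genes that share the prefix of *1700074P13Rik*, 241 were lower and 4 were higher, all 4 with level reads. Their median log2 fold change was -4.22, and 156 had 3 reads or fewer in each SKO library. Of 283 genes with the prefix of *4930511M11Rik* or a neighbouring testis prefix, 215 were lower and 11 higher, 5 of the higher with level reads (median -3.43). The first of these named had 3353 and 6554 reads in WT and none in SKO, at least 286-fold lower, and the second had 1871 and 4321 in WT and 0, 1 and 0 in SKO, at least 159-fold lower. In contrast *1700029F09Rik*, with 15290 and 14808 reads in WT and 3809, 7086 and 5402 in SKO, was not called. Genes with 3 reads or fewer in each SKO library could pass the filter on mean reads only through WT. Listed genes left untested numbered 104 with the first prefix and 229 in the second group. Among genes averaging 50 reads or more, 156 and 110 were lower, in that order.

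Promoters of lower genes are shown to let the letters of the late programme's regulators be seen in place. The windows are 300 bases, from 250 before the annotated start to 50 after it, from RefSeq on GRCm38.p6, and 10786 of the 13724 genes tested had one. The letters AACTGNC, read on both strands as a match for the A-MYB site, stood in 12.9% of all 27025 promoters, in 14.6% of those of lower genes, in 10.5% of those not called and in 11.6% of those higher. GTTGCC, an RFX half-site, stood in 12.7% of all promoters, in 18.4% of those of lower genes, in 12.1% of those not called and in 10.5% of those higher. TGACGTCA, the full cyclic AMP response element that CREM reads, stood in 1.88% of all promoters and in 2.97% of those of lower genes, against 3.53% of those not called and 2.69% of those higher. Among lower genes with 3 reads or fewer in each SKO library the shares were 20.4% for the A-MYB letters, 19.8% for the RFX half-site and 1.41% for the cyclic AMP response element. Those genes could pass the filter on mean reads only through WT. Over all tested genes with a promoter the shares were 11.7%, 13.5% and 3.27%, in the same order. The first 3 promoters below carry A-MYB letters in capitals, and are those of *Gk2*, *Pgam2* and *Catsperb*, which are among the named decreases.
Gk2, chr5:97456974-97457273, minus strand: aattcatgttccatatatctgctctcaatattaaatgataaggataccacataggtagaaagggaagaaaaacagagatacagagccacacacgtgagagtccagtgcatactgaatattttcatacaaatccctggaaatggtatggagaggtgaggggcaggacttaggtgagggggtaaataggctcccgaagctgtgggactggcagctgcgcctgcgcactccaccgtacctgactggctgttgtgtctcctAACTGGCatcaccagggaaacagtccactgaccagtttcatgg
Pgam2, chr11:5803747-5804046, minus strand: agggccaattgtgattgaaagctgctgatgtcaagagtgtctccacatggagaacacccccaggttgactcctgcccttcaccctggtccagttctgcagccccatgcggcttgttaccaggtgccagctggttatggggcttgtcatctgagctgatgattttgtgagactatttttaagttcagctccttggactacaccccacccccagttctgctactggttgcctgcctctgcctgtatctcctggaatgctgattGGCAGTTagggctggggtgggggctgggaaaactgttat
Catsperb, chr12:101404423-101404722, plus strand: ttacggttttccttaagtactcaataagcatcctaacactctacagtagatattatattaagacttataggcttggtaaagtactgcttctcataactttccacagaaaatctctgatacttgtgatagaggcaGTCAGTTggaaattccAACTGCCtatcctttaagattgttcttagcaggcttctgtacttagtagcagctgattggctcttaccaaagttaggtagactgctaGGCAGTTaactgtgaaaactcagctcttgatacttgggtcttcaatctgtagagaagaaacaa
The next 3 carry RFX half-site letters in capitals, in the genes of a tektin, of the radial spoke protein LRRC23 and of RFX2 itself.
Tekt1, chr11:72361833-72362132, minus strand: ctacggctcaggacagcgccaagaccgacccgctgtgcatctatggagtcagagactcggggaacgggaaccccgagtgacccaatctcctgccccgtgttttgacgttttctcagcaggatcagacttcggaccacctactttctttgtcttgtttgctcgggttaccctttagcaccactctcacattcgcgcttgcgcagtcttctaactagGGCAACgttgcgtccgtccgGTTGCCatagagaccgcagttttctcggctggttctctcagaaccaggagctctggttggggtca
Lrrc23, chr6:124779678-124779977, minus strand: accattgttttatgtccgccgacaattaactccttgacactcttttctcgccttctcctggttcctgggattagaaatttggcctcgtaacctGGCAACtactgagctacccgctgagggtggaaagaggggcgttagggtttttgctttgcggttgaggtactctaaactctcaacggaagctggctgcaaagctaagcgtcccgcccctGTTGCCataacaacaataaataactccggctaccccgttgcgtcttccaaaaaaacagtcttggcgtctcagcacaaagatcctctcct
Rfx2, chr17:56830959-56831258, minus strand: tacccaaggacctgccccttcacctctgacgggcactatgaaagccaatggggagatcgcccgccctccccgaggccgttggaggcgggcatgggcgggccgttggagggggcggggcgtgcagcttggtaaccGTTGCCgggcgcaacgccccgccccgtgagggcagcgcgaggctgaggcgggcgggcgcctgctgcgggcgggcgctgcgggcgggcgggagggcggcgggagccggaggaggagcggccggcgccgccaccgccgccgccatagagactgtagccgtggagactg
Capitals mark a match of letters, not a tested site. *Lrrc23* had 809 and 1537 reads in WT and 0, 0 and 1 in SKO, at least 68.9-fold lower.

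Many proteins exist in a testis form and in a form used elsewhere, and 38 pairs of this kind were compared, without a test of the pairs. The testis gene was lower in 30 pairs, higher in 1 and not called in 7, with a median of -2.92. Of the 36 partners tested, 4 were lower, 5 higher and 27 not called, with a median of 0.29. In 35 of the 37 pairs with both genes tested the testis gene had the lower fold change of the pair.

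Sugar metabolism gives the plainest cases. *Pgk2*, the testis phosphoglycerate kinase, had 1427 and 1956 reads in WT and 0, 3 and 1 in SKO, at least 122-fold lower. *Pgk1*, its X-linked partner, had 780 and 605 reads in WT and 266, 422 and 352 in SKO and was not called (log2 fold change 0.39). *Pgam2*, a phosphoglycerate mutase shared by testis and muscle, had 3939 and 7939 reads in WT and 0, 1 and 2 in SKO, at least 336-fold lower. Its partner *Pgam1* had 3082 and 977 reads in WT and 1078, 1705 and 1261 in SKO, with a log2 fold change of 1.01, called among the fits that left out a library only without WT replicate 2. *Gk2*, a glycerol kinase, had 2736 and 6671 reads in WT and 1, 1 and 0 in SKO, at least 233-fold lower, while the X-linked *Gyk* was not called (log2 fold change -1.14). *Gapdhs* had 503 and 373 reads in WT and 3, 4 and 0 in SKO, and *Gapdh* was not called (log2 fold change 0.13).

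In 4 pairs the testis form and its partner were both lower, and among those 4 partners *Ldha* of lactate dehydrogenase had the largest decrease. *Ldhc*, the testis subunit, had 29510 and 54176 reads in WT and 22, 57 and 39 in SKO (log2 fold change -8.65 ± 0.38, adjusted p = 5.2e-05). *Ldha*, the subunit of muscle and of most other tissues, had 5607 and 10626 reads in WT and 78, 127 and 87 in SKO (-4.92 ± 0.36, adjusted p = 6e-05). The catalytic subunits of calcineurin also fell together, at -2.27 ± 0.30 for *Ppp3cc* and -2.05 ± 0.24 for *Ppp3ca* (adjusted p = 0.00072 and 0.00038). Of their regulatory subunits only the testis form was called, with a log2 fold change of -8.17 for *Ppp3r2* and 0.71 for *Ppp3r1*.

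Respiratory chain pairs diverged in both directions. *Cyct*, testis cytochrome c, had 2121 and 2643 reads in WT and 243, 395 and 329 in SKO (adjusted p = 0.0014), a mean level 0.342 times that of WT. *Cycs*, the somatic form, had 15326 and 9959 reads in WT and 8326, 14295 and 12528 in SKO (1.29 ± 0.20, adjusted p = 0.0015). *Cox8c*, a testis subunit of cytochrome c oxidase, had a log2 fold change of -5.12 and its partner *Cox8a* of 0.58, the latter not called. The X-linked *Cox7b* had 635 and 338 reads in WT and 519, 964 and 753 in SKO and was higher by 2.04 ± 0.19 (adjusted p = 0.00015), while its testis copy *Cox7b2* was not called at 4125 and 5685 reads in WT and 1092, 1633 and 1534 in SKO.

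Several but not all pairs of the RNA and protein machinery followed the same lines. Among the exceptions the testis gene *Taf7l* was not called (log2 fold change 0.91) and *Rbmxl2* was higher (1.63). *Pabpc2*, a poly(A)-binding protein, had 2782 and 6433 reads in WT and none in SKO, at least 237-fold lower, and the widely used *Pabpc1* was also lower, by 1.11 on the log2 scale (adjusted p = 0.0079; -0.79 and not called without WT replicate 3). *Papolb*, the testis poly(A) polymerase, had 879 and 2009 reads in WT and 7, 7 and 9 in SKO, and *Papola* was not called (log2 fold change 0.27). *Cct6b*, of the chaperonin that folds tubulin, had a log2 fold change of -6.04 and *Cct6a* of 0.31. The HSP70 gene *Hspa2* had 8894 and 12594 reads in WT and 646, 719 and 708 in SKO (-2.53 ± 0.29, adjusted p = 0.00032), and *Hspa8* was not called at -0.03.

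Pairs differed by where the partner lies. With an X-linked partner (12 pairs), 5 testis genes were lower, 1 was higher and 6 were not called, and of the partners 0 were lower and 3 higher. Among the 6 was *Eif2s3y*, which lies on the Y and is not an autosomal copy of its partner *Eif2s3x*. With an autosomal partner (26 pairs), 25 testis genes were lower. *Rpl10l*, the autosomal copy of a ribosomal protein, had 3070 and 3870 reads in WT and 553, 710 and 525 in SKO (log2 fold change -1.14, and -0.78 and not called without WT replicate 3), and the X-linked *Rpl10* had 3063 and 2302 in WT and 1874, 2368 and 2334 in SKO and was higher by 1.12 ± 0.16 (adjusted p = 0.001). *Rbmxl2*, a testis splicing factor, was the only testis gene that was higher, with 227 and 217 reads in WT and 241, 272 and 271 in SKO, and its reads were level. These pairs were chosen from general knowledge with earlier results in view.

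The sex chromosomes stood apart from the autosomes. Of 543 X-linked genes tested, 49 were lower, or 9.02%, and 143 higher, or 26.3%, with a median log2 fold change of 0.68. The lower X-linked genes numbered 24 of 513 without WT replicate 2 and 13 of 394 among genes averaging 50 reads or more. Over all autosomes 26.4% were lower and 12.7% higher, with a median of -0.16. Single autosomes ran from 21.7% lower on chromosome 13 to 31.1% on chromosome 17, and from 10.1% higher on chromosome 9 to 15.1% on chromosome 3, so that the X lay outside their range in both directions. Without genes of level reads 26.4% of X-linked genes were higher, and on the calibrated values without rescaling 115 of the 543 were. On the Y, 3 of 8 genes were higher.

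Germ cell families of the X had a share of higher genes near that of the whole X. The Rhox, Mage and Xlr families, most of whose genes lie in X-linked clusters, had 12 higher and 2 lower genes of 51 tested (median 0.44). That is 23.5% higher, against 26.3% of all X-linked genes, whose median was 0.68. On the X lay 47 of the 51. Without SKO replicate 3, 7 were higher, and the lower ones numbered 0 without WT replicate 2 and 1 without WT replicate 3. *Rhox10*, a homeobox gene of spermatogonia, had 139 and 49 reads in WT and 157, 231 and 166 in SKO (adjusted p = 0.00083), a 5.48-fold higher mean level. *Usp26*, an X-linked deubiquitinase, had 684 and 821 reads in WT and 738, 1091 and 1073 in SKO (1.75 ± 0.22, adjusted p = 0.00058). *Tex13* had 1376 and 1324 reads in WT and 1204, 1620 and 1638 in SKO (1.53 ± 0.18, adjusted p = 0.00037). Their reads overlapped or nearly met between genotypes, and the increase is one of level per calibrated unit. Both members of the late spermatocyte list that were higher, *Ccnb3* and *Nxt2*, are also X-linked. Their place on that list does not show that they rise late. *Ccnb3* had a log2 fold change of 0.92 and was not called without WT replicate 2.

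Machinery of gene expression, where NAT10 has its rRNA and tRNA targets, held fewer lower genes in each of its lists than the 25.8% of all genes. Of 85 cytosolic ribosomal protein genes, 1 was lower (*Rpl10l*) and 13 were higher, 2 of these with level reads, with a median of 0.47. The higher ones included the X-linked *Rps4x*, with 433 and 320 reads in WT and 322, 501 and 454 in SKO, and *Rpl39*, with 991 and 1193 in WT and 1089, 1355 and 1444 in SKO. Their log2 fold changes were 1.57 ± 0.16 and 1.65 ± 0.24 (adjusted p = 0.00021 and 0.00098). The share of all 13 at 15.3% lay near that over all genes. Without rescaling 6 were higher, and without WT replicate 2 the count was 7. With no fold threshold 41 of the 85 were higher and 5 lower, against 2716 and 4273 of all 13724 genes.

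The 45S pre-rRNA entry *Rn45s* had 100715 and 119164 reads in WT and 4023, 8149 and 5424 in SKO, lower by a log2 difference of -2.88 ± 0.28 (adjusted p = 0.00017). Priming was by oligo(dT), so these reads are not a measure of total pre-rRNA. Of 75 ribosome biogenesis factors, 5 were lower and 9 higher, 7 of these with level reads (median 0.09). *Rrp1*, of the nucleolar processing machinery, had 3037 and 3762 reads in WT and 199, 252 and 250 in SKO (-2.45 ± 0.24, adjusted p = 0.00016). *Npm1*, nucleophosmin, was not called, with 19339 and 19211 reads in WT and 8769, 14921 and 12591 in SKO. Leaving out WT replicate 3 left 3 biogenesis factors lower. Mitochondrial ribosomal proteins had 9 lower and 6 higher of 76, and all 6 had level reads.

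Enzymes that modify tRNA had 14 lower and 7 higher of 62 tested, with a median of -0.14, near that of all genes. *Nsun7*, a testis member of the cytosine methyltransferase family, had 330 and 520 reads in WT and 1, 1 and 4 in SKO (log2 fold change -5.79 ± 0.58, adjusted p = 0.00018). *Nsun2*, the tRNA cytosine-5 methyltransferase, was not called, with 2426 and 2695 reads in WT and 542, 875 and 718 in SKO. *Trub1* and *Tyw1* were higher with level reads. The lower count fell from 14 to 5 when WT replicate 3 was left out and to 7 without SKO replicate 1 or 3.

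Splicing factors of the SR and hnRNP families had 2 lower and 9 higher of 48 (median 0.38), and 1 lower without SKO replicate 1 or WT replicate 3. *Hnrnph2*, X-linked, had 1070 and 767 reads in WT and 857, 1175 and 910 in SKO, with a mean level 2.85 times that of WT (adjusted p = 0.00022). *Hnrnpu*, a nuclear matrix protein, was not called. Of 58 genes of mRNA deadenylation, decapping and decay, 10 were lower and 9 higher, 2 of the higher with level reads. *Dis3l*, the exonuclease of the cytoplasmic exosome, had 1521 and 2773 reads in WT and 29, 45 and 35 in SKO, and the exosome subunit *Exosc5* had 2302 and 3275 in WT and 94, 142 and 120 in SKO. Both lay far below WT, at -4.40 ± 0.37 and -3.14 ± 0.27 (adjusted p = 9.2e-05 and 0.0001). *Exosc2*, of the same complex, was higher with level reads. Translation factors had 7 lower and 3 higher of 63, among the lower *Eif5a*, which relieves stalled ribosomes, with 15062 and 10478 reads in WT and 1269, 1693 and 1370 in SKO (-1.73 ± 0.17, adjusted p = 0.00015). The lower counts without WT replicate 3 were 6 for the decay genes and 2 for the translation factors. Without SKO replicate 1 the translation factors had 4 lower and 5 higher.

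Among the chromatin lists, histone variants had a share of lower genes above the 25.8% of all genes, and the others lay near or below it. Of 14 histone variants and linker variants, 7 were lower and 1 higher, a call that was lost whenever a library was left out. *Hils1*, a spermatid linker histone, had 837 and 370 reads in WT and none in SKO, at least 42.6-fold lower. *H2afx*, whose phosphorylated form marks breaks and the silenced sex chromosomes, had 984 and 988 reads in WT and 101, 122 and 115 in SKO (log2 fold change -1.72 ± 0.23, adjusted p = 0.00065). *H3f3b*, a gene of histone H3.3, was not called at 79532 and 94260 reads in WT and 18950, 37448 and 30543 in SKO. Of 19 lysine demethylases, 5 were lower and 3 higher (3 lower without SKO replicate 1, SKO replicate 2 or WT replicate 2), and *Kdm4d*, a testis member, had 566 and 1365 reads in WT and 5, 14 and 17 in SKO. Remodellers of the SWI/SNF, ISWI, CHD and INO80 classes had 9 lower and 3 higher of 48. *Arid2*, of the PBAF complex, had 4767 and 6309 reads in WT and 461, 761 and 755 in SKO (-1.69 ± 0.25, adjusted p = 0.0013). Leaving out WT replicate 3 left 3 remodellers lower. Zinc finger genes of the Zfp names had 45 lower and 57 higher of 318, 24 of the higher with level reads. The lower Zfp genes numbered 18 without that library.

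Protein turnover had a testis part and a general part. The proteasome had 10 lower and 1 higher of 48, the latter with level reads (median -0.16), and without WT replicate 2 there were 5 higher. *Psma8*, the core subunit of the spermatoproteasome, had 4666 and 4542 reads in WT and 168, 324 and 259 in SKO (log2 fold change -2.84 ± 0.19, adjusted p = 5.2e-05). Its partner *Psma7* was not called, with 6093 and 2780 reads in WT and 1293, 2115 and 1748 in SKO. *Psmc3*, an ATPase of the 19S cap, had 7332 and 8821 reads in WT and 897, 1391 and 1107 in SKO (-1.45 ± 0.22, adjusted p = 0.0013). Deubiquitinases of the USP family had 10 lower and 3 higher of 47 (5 higher without SKO replicate 2), the most reduced being *Usp2* at 2291 and 4461 reads in WT and 92, 132 and 116 in SKO. RING ligases named Rnf had 14 lower and 7 higher of 65, 4 of the higher with level reads, and *Rnf32* had 3436 and 5553 reads in WT and 15, 38 and 21 in SKO. F-box genes, substrate receptors of SCF ligases, had 13 lower and 8 higher of 60 (3 of the higher with level reads, and 4 higher without SKO replicate 1), and *Fbxw10* was at least 45.7-fold lower at 536 and 1088 reads in WT and 0, 0 and 1 in SKO. Shares of lower genes in these 4 lists ran from 20.8% to 21.7%, below the 25.8% of all genes. The lower RING ligases numbered 9 without WT replicate 3, and the lower USP genes 15 without WT replicate 2.

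Endosomal sorting by retromer, HOPS and ESCRT complexes had 18 lower and 5 higher of 66 (median -0.28). The share of lower genes, 27.3%, was near the 25.8% of all genes, and 3 were higher without SKO replicate 2, SKO replicate 3 or WT replicate 3. *Snx1*, a sorting nexin of retromer, had 2602 and 3702 reads in WT and 133, 233 and 248 in SKO (log2 fold change -2.56 ± 0.29, adjusted p = 0.00034). *Vps29*, of the retromer core, was not called at 6425 and 6556 reads in WT and 1480, 3038 and 2578 in SKO. Heat shock proteins, HSP40 co-chaperones among them, had 24 lower and 4 higher of 75 (median -0.46). *Hspb9*, a small heat shock protein of testis, was at least 116-fold lower at 1361 and 3154 reads in WT and 3, 2 and 2 in SKO, while *Hsp90aa1* was not called at 59619 and 64810 in WT and 14986, 22125 and 20249 in SKO.

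Oxidative phosphorylation subunits had 12 lower and 5 higher of 79, shares below those of all genes in both directions. *Uqcrc1*, a core protein of complex III, had 6234 and 6271 reads in WT and 248, 552 and 463 in SKO (log2 fold change -2.56 ± 0.22, adjusted p = 0.0001). *Cox6c* was not called, with 11733 and 11350 reads in WT and 5117, 9042 and 7279 in SKO. The lower subunits numbered 6 without WT replicate 3 and 19 without WT replicate 2. Glutathione transferases, which conjugate reactive compounds, had 5 lower and 3 higher of 20, a share of lower genes near that of all genes, with *Gstt4* at least 62.9-fold lower at 738 and 600 reads in WT and 0, 1 and 0 in SKO. The higher ones numbered 0 without SKO replicate 2 or WT replicate 3 and 1 without SKO replicate 1 or 3. Cholesterol synthesis had 2 lower and 3 higher of 22. Its lower count was 1 without SKO replicate 2 or WT replicate 3, and its higher count 1 without SKO replicate 3 or WT replicate 3. *Fdft1*, squalene synthase, had 1819 and 3147 reads in WT and 199, 325 and 283 in SKO (-1.77 ± 0.33, adjusted p = 0.0031).

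Spermatogonial lists held more higher than lower genes. Of 18 genes listed for differentiating spermatogonia, 8 were higher and 3 lower (median 0.75), and 4 were higher without rescaling. The higher ones included *Kitl* (log2 fold change 2.19 ± 0.36), which encodes the ligand of the receptor KIT. Sertoli cells make that ligand, so the count is not one of spermatogonial genes alone. *Dmrt1*, a regulator that holds back meiotic entry, had 3312 and 1674 reads in WT and 1937, 2436 and 2181 in SKO (log2 fold change 1.29 ± 0.21, adjusted p = 0.0017; 0.99 and not called without WT replicate 3). *Prss50* and *Hspa4l* were among the lower. The differentiating list summed to 2115 and 1758 RPM in WT and to 1454, 1535 and 1475 in SKO, all below WT. Its count of higher genes is thus not a rise of the summed level. Of 19 tested genes of undifferentiated spermatogonia, 5 were higher and 1 lower. The summed level of that list was 325 and 143 RPM in WT and 266, 280 and 231 in SKO, so the WT libraries lay on both sides of the SKO libraries. Without WT replicate 3, 1 gene of the undifferentiated and 3 of the differentiating list were higher. Of the undifferentiated list 10 were higher without WT replicate 2 and 3 without SKO replicate 2 or 3, and the lower call was lost in each of these 4 fits. Cell cycle lists were mixed, with 12.7% to 15.8% lower and 5.45% to 18.4% higher, against 25.8% and 13.4% of all genes. Cyclins and their kinases had 6 lower and 7 higher of 38, the most reduced being *Ccna1*, the cyclin of meiotic divisions, at 315 and 1191 reads in WT and 4, 5 and 8 in SKO (-5.15 ± 0.68, adjusted p = 0.00067). DNA replication machinery had 7 lower and 3 higher of 55, 2 of the higher with level reads (median -0.23). There were 12 lower without WT replicate 2 and 1 higher without WT replicate 3.

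Immediate early genes, which respond within minutes to growth factors and to cell handling, were higher in 19 of 25 cases and lower in none (median 1.80). *Fos* had 513 and 231 reads in WT and 448, 936 and 780 in SKO (log2 fold change 2.40 ± 0.25, adjusted p = 0.00022). *Egr1* had 443 and 158 reads in WT and 342, 554 and 508 in SKO (2.18 ± 0.30, adjusted p = 0.00079). *Btg2* was the member with the most reads that was not called, at 569 and 292 in WT and 215, 318 and 295 in SKO. The list summed to 337 and 140 RPM in WT and to 496, 634 and 590 in SKO, all above WT. When WT replicate 3 was left out, 13 were higher. The integrated stress response had 3 lower and 2 higher of 26 (1 higher without SKO replicate 1, SKO replicate 3 or WT replicate 3), and *Hspa5*, an endoplasmic reticulum chaperone, had a log2 fold change of 0.00. p53 targets had 2 lower and 4 higher of 24, 2 of the higher with level reads. The higher share of 16.7% was near the 13.4% of all genes.

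Steroid and somatic cell genes were among the larger increases that were not of level reads. Of 14 steroidogenesis genes, 7 were higher and none lower (median 1.56). *Cyp11a1*, which starts steroid synthesis by cleaving the cholesterol side chain, had 39 and 5 reads in WT and 74, 226 and 285 in SKO (log2 fold change 4.65 ± 0.68, adjusted p = 0.0011). *Cyp17a1*, of androgen synthesis, had 157 and 54 reads in WT and 169, 589 and 523 in SKO (3.38 ± 0.46, adjusted p = 0.00074). These genes define Leydig cells, the interstitial cells that make testosterone, and 12 of 16 Leydig markers tested were higher. The Leydig list summed to 542 and 125 RPM in WT and to 367, 835 and 866 in SKO, so the groups overlapped. Of the 17 listed, 1 was at 0 in every WT library and 1 in every SKO library. Without WT replicate 3, 6 Leydig markers and 3 steroidogenesis genes were higher, and 1 Leydig marker was lower.

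Macrophage markers were higher in 14 of 20 cases and lower in 3. *Cd163*, a scavenger receptor, had 144 and 190 reads in WT and 776, 718 and 727 in SKO, with level reads. *Fcgr3* and *Aif1* went the other way, the latter at 420 and 208 reads in WT and 6, 22 and 23 in SKO. Neither was called without WT replicate 2 (adjusted p = 0.0518 and 0.0578), nor *Fcgr3* without WT replicate 3 (0.105). The list summed to 117 and 95.9 RPM in WT and to 195, 243 and 246 in SKO. The higher markers numbered 8 when WT replicate 2 was left out, 7 when WT replicate 3 was, and 2 among genes averaging 50 reads or more. Stromal markers were higher in 8 of 13 cases, led by *Dcn*, a matrix proteoglycan, at 42 and 120 reads in WT and 141, 278 and 385 in SKO (log2 fold change 3.14 ± 0.56, adjusted p = 0.0027), and with WT replicate 2 or WT replicate 3 left out 4 and 3 were higher, in that order.

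Sertoli cell markers were higher in 3 of 18 cases, or 16.7%, near the 13.4% of all genes, and lower in none. They summed to 2323 and 617 RPM in WT and to 1146, 1493 and 1180 in SKO, between the WT libraries. *Clu*, a secreted chaperone of Sertoli cells, had 12504 and 2381 reads in WT and 1229, 2516 and 1599 in SKO, and had a log2 fold change of -1.27 and was called only without WT replicate 3. Without WT replicate 2, 10 Sertoli markers were higher, and without WT replicate 3 there were 1 higher and 2 lower. Lymphoid markers had no call in 5 tested (1 lower without SKO replicate 3), and endothelial markers had 1 higher of 5 (0 without SKO replicate 2). The part of interstitial cells in the increases was not tested.

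Chemokines and complement genes were also higher in part, by count of genes and not by summed level. Of 40 chemokines listed 14 were tested, and 9 were higher and 1 lower (median 3.20). *Cxcl1*, a neutrophil attractant, had 188 and 12 reads in WT and 68, 174 and 125 in SKO, and its call held among the fits that left out a library only without WT replicate 2. *Ccl27a*, the lower one, had 552 and 1272 reads in WT and 11, 16 and 19 in SKO (log2 fold change -4.30 ± 0.50, adjusted p = 0.00034). Of 27 complement genes listed 15 were tested, and 8 were higher and 4 lower. The higher complement genes numbered 4 without SKO replicate 3 or either WT library and 5 without SKO replicate 2. These counts rest on genes of few reads, since among genes averaging 50 reads or more 2 chemokines and 0 complement genes were higher. Interferon-stimulated genes had 7 higher and 3 lower of 33, 3 of the higher with level reads, among them *Irgm1* at 273 and 290 reads in WT and 2281, 1629 and 1788 in SKO. Their count without WT replicate 2 was 16 higher, and without WT replicate 3 there was 1 lower. Of 15 serpins tested, protease inhibitors for the most part, 7 were higher and 1 lower. The higher serpins numbered 2 without WT replicate 3, 3 without SKO replicate 2 or 3, and 0 among genes averaging 50 reads or more. The serpin list summed to 324.8 and 277.7 RPM in WT and to 153.8, 218.5 and 199.8 in SKO, all below WT. For the summed chemokines and the summed complement genes, no SKO library lay above WT replicate 3. Only the interferon-stimulated list of this paragraph had a summed level above both WT libraries in every SKO library.

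The 13 other lists with at least 10 genes tested, among them Rab GTPases and collagens, had 6.90% to 27.8% of their genes lower and 4.44% to 39.1% higher. The highest share was that of Toll-like receptor and NF-kB signalling, with 9 of 23 higher, 4 of them with level reads, and 5 higher without WT replicate 3.

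Single genes with the largest increases were of mixed kinds. *Bhmt*, a methyltransferase of homocysteine, had 4 and 0 reads in WT and 60, 249 and 258 in SKO. *Lcn2*, an iron-binding lipocalin, had 16 and 9 reads in WT and 164, 444 and 367 in SKO (log2 fold change 5.73 ± 0.35, adjusted p = 5.2e-05). *Ptk6*, a non-receptor tyrosine kinase, had 22 and 45 reads in WT and 296, 349 and 358 in SKO. Every SKO library was above both WT libraries for these 3. *Hyal3*, *S1pr4* and *Gm4951* were also among the 10 largest increases and had level reads. Among the 10 largest decreases, *Prdx6b*, *Cmtm2a* and *Cmtm2b* were at least 245-fold, at least 446-fold and at least 326-fold lower.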

How the data were processed

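Reads were aligned with TopHat2 2.1.1 and counted per gene with HTSeq 0.11.2 by the authors, per the labels, which also name Cufflinks 2.2.1, DESeq2, mm9 and mm10. The deposited values are signal, the counts of each library times 1 factor set from the ERCC spike-in. Dividing each library by its smallest value above 0 gave whole reads for 100% of values within 0.01 reads. Genes averaging 10 reads or more over the 5 LZ libraries were kept, so genes with 3 reads or fewer in each SKO library passed only through WT. After division of the deposited signal by median-of-ratios size factors, limma 3.58.1 (R 4.3.3) was fitted to log2(value + 10) with its trend option and p-values were adjusted by Benjamini-Hochberg, since calibrated values are not counts; edgeR 4.0.16 and DESeq2 1.42.0 on the whole reads were alternatives. The procedure was tested on simulated data. Where no SKO library held more than 3 reads, the fold was bounded against 3 reads times the largest value of 1 read in SKO, for counting error only.

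The members, the 78 gene lists and the pairs were chosen with earlier results of these data known. Genes are named by this rule: *Nat10*; in each list, up to 3 called genes of largest change that averaged 100 reads or more without overlap of the genotypes, and the member with the most reads not called; both genes of a pair; the 10 largest changes in each direction; and the 10 genes of highest mean in each genotype. *Sycp3*, *Dmc1*, *Ccnb3*, *Nxt2*, the shared run, level reads and the printed promoters were chosen after values were seen. Of the 23282 symbols, 20864 matched GENCODE directly and 1920 by an older symbol. No column was left unused. Spermatogonia and preleptotene libraries were not used here.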

Additional observations from a re-analysis of the deposited data

How the results depend on the processing

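Over the alternatives set for this comparison, the lower genes numbered 2753 to 4273 and the higher genes 1367 to 2716 when no library was left out, and 2392 to 3463 and 1425 to 2034 when each library was left out in turn. The lowest lower count was without WT replicate 3; with 1 WT library left, that library was assumed to vary like the SKO libraries. Without a fold threshold 229 X-linked genes were higher in place of 143. Without rescaling 3840 genes were lower and 1556 higher. edgeR called 3430 lower and 1832 higher, DESeq2 3419 and 1852, and thinning the WT libraries to the SKO depth gave 3153 and 1892. With a replicate block 3520 were lower and 1845 higher. Some list counts moved with it, among them F-box genes to 5 higher and interferon-stimulated genes to 12 higher. Same-numbered libraries deviated together with correlations of 0.0871 and 0.0705 over 2 pairs. With 2 WT libraries the deviations of 1 mirror those of the other, so these values cannot tell whether same-numbered libraries share more than a number. Without genes that hold the shared run, an alternative chosen after seeing the data, 3391 were lower and 1652 higher, and without genes of level reads 3336 and 1422. Over the 137 genes named, 2406 of 2444 values under an alternative kept their direction and their side of the threshold, 27 lost a call, 11 gained one and 0 reversed. Depth limits the genes with few reads in SKO, whose folds are bounds.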
